A study of Homo sapiens with 41 samples.

Results

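The 9 genes described here are targets of NRF2: HMOX1, NQO1, GCLC, GCLM, TXNRD1, SRXN1, SLC7A11, OSGIN1 and ME1. Some of them take part in making glutathione, keeping thioredoxin reduced or supplying reducing power. The 9 genes were taken by gene name from a table of read counts, and each name matched 1 of its 57773 genes. All 9 passed the filter on low counts in every comparison. The study exposed a 2-sided in vitro model of the alveolus for 24 h to gold particles of 3 shapes, spheres, rods and stars, each with the number 1000 or 500 in the sample title (its unit is not in the labels), or left it untreated, and sequenced total RNA. A549, a line from a lung adenocarcinoma, grew with differentiated THP1, a line from a monocytic leukaemia, on the apical side under air. The basolateral side, submerged, held the line labelled EA.hy296. The 41 libraries form 14 groups, 7 per side (spheres 1000, spheres 500, rods 1000, rods 500, stars 1000, stars 500 and untreated control), with 3 replicates each except basolateral spheres 500, which has replicates 1 and 3. Apical libraries held 5243388 to 11660653 counts and basolateral libraries 2751299 to 10538069.

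NRF2, encoded by NFE2L2, is a transcription factor that the adaptor KEAP1 normally hands over for degradation. Electrophiles and oxidants modify cysteines of KEAP1, NRF2 then accumulates, pairs with a small MAF protein and binds antioxidant response elements (ARE) near its target genes, while BACH1 competes for many of the same elements. A549 cells are known to carry an inactivating KEAP1 mutation that leaves NRF2 active without a stimulus. EA.hy926, an endothelial line whose name differs from the label by the order of its digits, is known as a hybrid of umbilical vein endothelial cells and A549 cells. Whether it is the line used is not given in the sources used here.

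Markers fit the 2 labelled sides only in part. Summed endothelial markers reached 41.7 to 104 CPM (counts scaled to a library total of 1000000) in apical libraries and 1855 to 3058 CPM in basolateral libraries. EMCN and CLDN5 of these had basolateral medians of only 0 and 0.306 CPM. The epithelial list, of which ALDH1A1 made up most, summed to 6767 to 10207 CPM apically and 100.2 to 2194 CPM basolaterally, and ESRP1, GRHL2, PRSS8 and SFTPB of that list had a median of 0 CPM on both sides. Summed macrophage markers gave 1172 to 1638 CPM apically and 46.5 to 376 CPM basolaterally, with apical medians of 0 CPM for MRC1 and 0.353 CPM for MARCO. Mast cell markers, with KIT and SLC18A2 the highest by median, summed to 295.5 to 1679 CPM in apical libraries, although the labels name no such cell. Of that list, MS4A2 had an apical median of 0.627 CPM and FCER1A one of 0 CPM. The title of the series speaks of a tetra-culture, while the sample labels name 3 lines, and whether a further line was present is not given in the sources used here. In bulk RNA, fewer cells of a type and less RNA per cell cannot be told apart.

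Since NRF2 acts through the ARE, the promoters that hold its core letters are shown. RefSeq (GRCh38.p14) gave 8 promoters for 7 of the members, each 250 bases before to 50 after a gene start. The core TGACNNNGC, searched on both strands, was in 4 of these 8 promoters, those of GCLM, ME1 and TXNRD1, against 13.3% of all 35116 promoters. The stretches around the matches run from 5′ to 3′ on the gene's own strand, with matches in capitals. They lie at chr1:93909416-93909504 on the minus strand for GCLM, chr6:83431022-83431228 on the minus strand for ME1, and, on the plus strand for TXNRD1, chr12:104215640-104215808 and chr12:104286890-104286978 for a second start.
GCLM: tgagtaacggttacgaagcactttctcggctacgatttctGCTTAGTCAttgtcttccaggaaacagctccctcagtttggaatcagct
ME1: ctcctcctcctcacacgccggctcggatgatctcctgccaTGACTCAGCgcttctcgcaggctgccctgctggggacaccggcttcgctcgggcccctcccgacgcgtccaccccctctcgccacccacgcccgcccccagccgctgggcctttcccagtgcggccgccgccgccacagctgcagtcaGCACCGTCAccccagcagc
TXNRD1, first start: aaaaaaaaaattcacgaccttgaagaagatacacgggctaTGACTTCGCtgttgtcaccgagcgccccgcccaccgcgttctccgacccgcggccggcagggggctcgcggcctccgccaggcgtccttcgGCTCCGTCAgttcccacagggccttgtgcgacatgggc
TXNRD1, second start: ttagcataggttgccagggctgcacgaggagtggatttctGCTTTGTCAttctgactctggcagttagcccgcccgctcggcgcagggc
The match of GCLM and that of the second TXNRD1 start read on the opposite strand, as TGACTAAGC and TGACAAAGC. So do the downstream matches of ME1 and of the first TXNRD1 start, as TGACGGTGC and TGACGGAGC. The upstream match of ME1 is TGACTCAGC, which also holds the AP-1 letters TGACTCA. That longer form was in 0.561% of all promoters and the AP-1 letters alone were in 4.95%, and in 2 of the 8 member promoters, those of ME1 and OSGIN1. A match is a description of these letters and was not tied to binding here.

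Without particles, 8 of the 9 genes were higher on the apical side than on the basolateral side, by 2.46-fold (GCLC) to 4.66-fold (NQO1), and HMOX1 was the exception. Of 14198 genes tested, 54.1% differed between the untreated sides (26.7% higher and 27.4% lower apically), so that calls are frequent in this comparison. The median log2 fold change, apical over basolateral, was 1.60 over the 9 members and -0.01 over all genes. The sides differ in cell line and in culture, which cannot be told apart as sources of a difference. Genes were tested with edgeR's quasi-likelihood test, adjusted by Benjamini-Hochberg over all genes and called at an adjusted p under 0.05.

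Of the glutathione genes, SLC7A11, the cystine importer of the exchanger xCT, had 691, 703 and 633 CPM in apical control replicates 1, 2 and 3, against 227, 160 and 80.5 CPM in the basolateral ones. The log2 fold change was 1.98 ± 0.34 (SE, adjusted p = 0.00361). The apical values were close together, while the basolateral ones were spread widely. GCLM, the modifier subunit of glutamate-cysteine ligase, had 126, 167 and 148 CPM apically and 43.0, 48.7 and 35.2 CPM basolaterally, a log2 fold change of 1.66 ± 0.16 (adjusted p = 0.00017). GCLC, the catalytic subunit of that rate-limiting enzyme of glutathione synthesis, had 132, 192 and 206 CPM apically and 69.5, 69.7 and 57.1 CPM basolaterally, a log2 fold change of 1.30 ± 0.19 (adjusted p = 0.00134). The untreated sides did not overlap for any of these 3 genes.

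Of the thioredoxin genes, TXNRD1, the cytosolic thioredoxin reductase, had 893, 1182 and 1193 CPM in apical controls, against 405, 383 and 284 CPM in basolateral controls. Its log2 fold change was 1.47 ± 0.18 (adjusted p = 0.000464). SRXN1, sulfiredoxin, which restores overoxidised peroxiredoxins, had 158, 218 and 236 CPM apically and 81.2, 78.7 and 52.7 CPM basolaterally, a log2 fold change of 1.39 ± 0.22 (adjusted p = 0.00167). Again no apical control library was as low as the highest basolateral one.

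NQO1, a quinone reductase, showed the largest difference of the 9 genes, with 1120, 1457 and 1264 CPM in apical controls, against 309, 261 and 179.7 CPM in basolateral controls (log2 2.22 ± 0.20, adjusted p = 0.000146). ME1, cytosolic malic enzyme and a source of NADPH, had 225, 257 and 228 CPM apically and 82.2, 80.6 and 49.9 CPM basolaterally (log2 1.60 ± 0.18, adjusted p = 0.000334). OSGIN1, a growth inhibitor induced by oxidative stress, was the least abundant, with 10.5, 13.6 and 7.80 CPM apically and 4.49, 2.12 and 1.53 CPM basolaterally (log2 1.83 ± 0.43, adjusted p = 0.00918). All 3 genes were without overlap between the untreated sides.

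HMOX1, heme oxygenase 1, which breaks heme down to biliverdin, iron and carbon monoxide, had 16.4, 19.3 and 30.4 CPM in apical controls and 15.98, 18.2 and 22.4 CPM in basolateral controls. The 2 sides overlapped, and the log2 fold change was 0.09 ± 0.28 with a 95% interval of -0.57 to 0.75 (adjusted p = 0.81), whose upper end is a 1.68-fold difference. Over all libraries, treated ones included, HMOX1 ranged from 16.4 to 34.9 CPM in 21 apical libraries and from 12.5 to 28.6 CPM in 20 basolateral libraries. Each of the other 8 genes was higher in its lowest apical library than in its highest basolateral one, closest for OSGIN1 (5.76 against 4.49 CPM). The share of all genes apart in this way, in all libraries or in the untreated ones, is not given here. With 54.1% of all genes called between the untreated sides, the lack of overlap is not shown to be particular to the members.

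**Figure D1:**
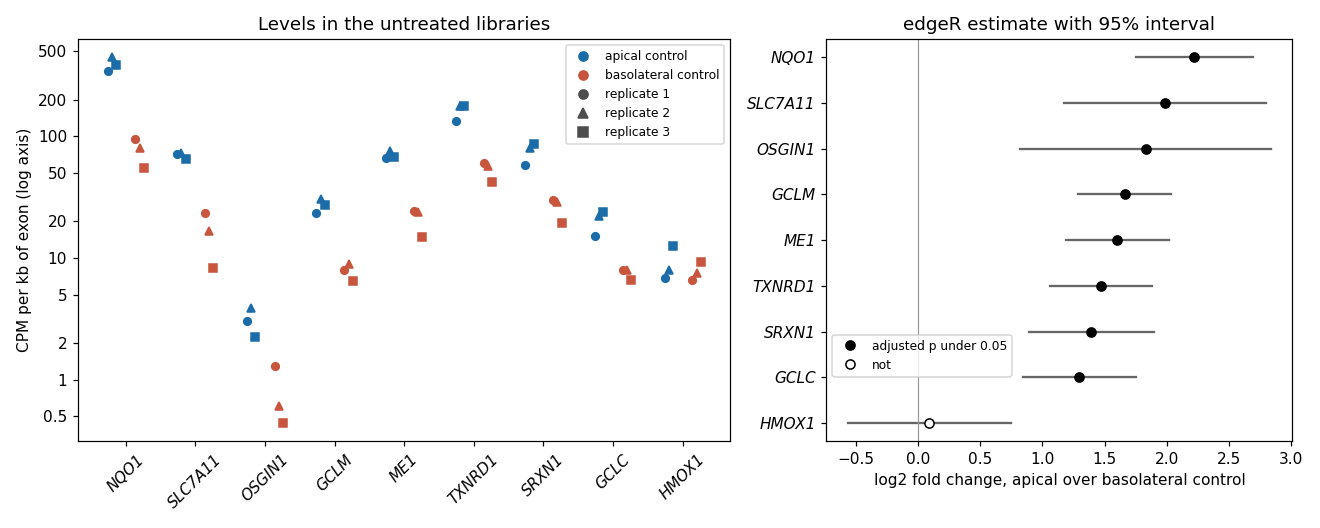
Left, CPM per kb of exon on a log axis in each untreated library, apical left of basolateral for each gene, with symbols for the replicate number. Right, log2 fold change of apical over basolateral control with its 95% interval (edgeR, 3 libraries a side); 8 genes lie between 1.30 and 2.22 with intervals above 0, and HMOX1 lies at 0.09.

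Per kb of exon, the order of levels was alike on both sides except for HMOX1. NQO1 (393 ± 52.1 CPM per kb, SD, n = 3) and TXNRD1 (162 ± 25.4) led on the apical side, followed by SRXN1, ME1 and SLC7A11 (70.1 to 75.6), which overlapped. GCLM (27.2 ± 3.79) and GCLC (20.4 ± 4.58) came next and overlapped each other, then HMOX1 (9.16 ± 3.06) and OSGIN1 (3.07 ± 0.835). Basolaterally, NQO1 (76.8 ± 20.1) and TXNRD1 (53.3 ± 9.61) led but overlapped, and HMOX1 (7.84 ± 1.35), GCLM (7.80 ± 1.26) and GCLC (7.57 ± 0.835) stood at about the same level. OSGIN1 was again the lowest, at 0.784 ± 0.453 CPM per kb, and was apart from its neighbour on both sides.

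Other genes of the pathway differed between the untreated sides group by group. Of 73 such genes tested, 44 were higher and 12 lower apically, where 26.7% of all genes were higher and 27.4% lower. In detoxication and export, 15 of 16 genes were higher and none lower, with a median log2 fold change of 3.09. They include the glutathione conjugate exporter ABCC1 (2.12 ± 0.11, adjusted p = 1.13e-05), UGDH, which makes UDP-glucuronate (2.42 ± 0.24, adjusted p = 0.000271), and TRIM16L (3.31 ± 0.32, adjusted p = 0.000314). The exception, CBR3, was at -0.45 ± 0.27 and not called. Reads of AKR1C1, AKR1C2 and AKR1C3 (all called, 3.50 to 3.79) may be shared between these near-identical genes. Of the NADPH suppliers, 6 of 7 were higher, among them IDH1 (2.31 ± 0.17) and the pentose phosphate enzyme PGD (2.24 ± 0.19).

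Glutathione genes went both ways, with 10 of 15 higher and 4 lower. GLRX, glutaredoxin (2.03 ± 0.15), and GSR, glutathione reductase (1.78 ± 0.16), were higher. The glutathione peroxidases split, with GPX2 (3.29 ± 0.95) and GPX3 (3.56 ± 0.40) higher and GPX1 (-1.38 ± 0.20) and GPX4 (-1.04 ± 0.16) lower on the apical side. GSS, which completes glutathione synthesis after GCLC and GCLM, was also lower (-0.51 ± 0.12). Of 12 thioredoxin and peroxiredoxin genes, 4 were higher (PRDX1, PRDX2, PRDX3 and TXN) and 2 lower (PRDX4 and SESN2), where 26.7% of all genes were higher and 27.4% lower. Of 6 heme and iron genes, 5 were higher, including FTH1 (1.75 ± 0.20) and FTL (1.48 ± 0.20), the ferritin chains, whose many pseudogenes can share their reads.

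Of the 10 control factors, 3 were higher and 2 lower, near the shares over all genes (26.7% higher and 27.4% lower). NFE2L2 was higher apically, with 192 ± 31.9 CPM, against 119 ± 13.7 CPM basolaterally (SD, n = 3 each; log2 0.56 ± 0.16, adjusted p = 0.0192). KEAP1 mRNA was at 35.2 ± 6.48 CPM apically and 37.5 ± 1.97 CPM basolaterally and BACH1 at 142 ± 13.7 and 153 ± 12.7 CPM, and neither was called. Of the small MAF genes, MAFK was higher (1.14 ± 0.15), MAFF lower (-2.45 ± 0.29) and MAFG not called (0.12 ± 0.09). SQSTM1, which encodes the KEAP1-binding p62, was higher (1.50 ± 0.21) and NFE2L1 lower (-0.47 ± 0.16). Among 9 ATF4 genes, listed because ATF4 also drives SLC7A11, 1 was higher (PSAT1) and 5 were lower (TRIB3, PHGDH, SESN2, ATF3 and ATF4 itself). The part of ATF4 in the SLC7A11 difference was not tested. By the same edgeR test, the adjusted p-values of the genes called here and among the glutathione, thioredoxin and iron genes ran up to 0.0451 (PSAT1).

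Particles changed none of the 9 genes past the threshold on either side. The share of all genes called was 0% in each of the 12 comparisons of a particle group with the control of its side, with 130 to 458 of 13030 to 14206 genes at an unadjusted p under 0.05, and 0 of 9 members were called or reached that unadjusted p (edgeR, without a replicate block). DESeq2 called 0 to 4 genes and limma-voom 0, with no member among them. The comparisons of 1 side share their control libraries, so their values are not independent. Of the 108 member values, 75 were above 0 and 33 below.

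Over the 9 genes, the median log2 fold change on the apical side was 0.11 for spheres 1000, 0.06 for spheres 500, 0.12 for rods 1000, 0.08 for rods 500, 0.13 for stars 1000 and 0.09 for stars 500. On the basolateral side it was 0.11, -0.01, 0.18, 0.14, 0.08 and -0.11 in that order, and the median over all genes stayed between -0.003 and 0.021 in these 12 comparisons. All 9 members were above 0 in rods 1000 on both sides, and 1 of 9 in basolateral stars 500. No test was made of these medians, since the genes of a library vary together.

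The 95% intervals show which changes these libraries could still hold. On the apical side 52 of 54 intervals lay within a 2-fold change in either direction, and the exceptions were the upper ends for HMOX1 with rods 500 (1.16) and OSGIN1 with rods 1000 (1.01, both log2). The narrowest gene was apical SLC7A11, whose 6 intervals together spanned -0.39 to 0.34. On the basolateral side 42 of 54 intervals were within 2-fold, with OSGIN1 in none of 6 and SLC7A11 in 1 of 6. For basolateral OSGIN1, counted with only 6 to 41 reads a library, the ends reached -2.08 and 1.38, and for SLC7A11 -1.61 and 1.40. GCLC was the best bounded there, at -0.40 to 0.34.

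**Figure D2:**
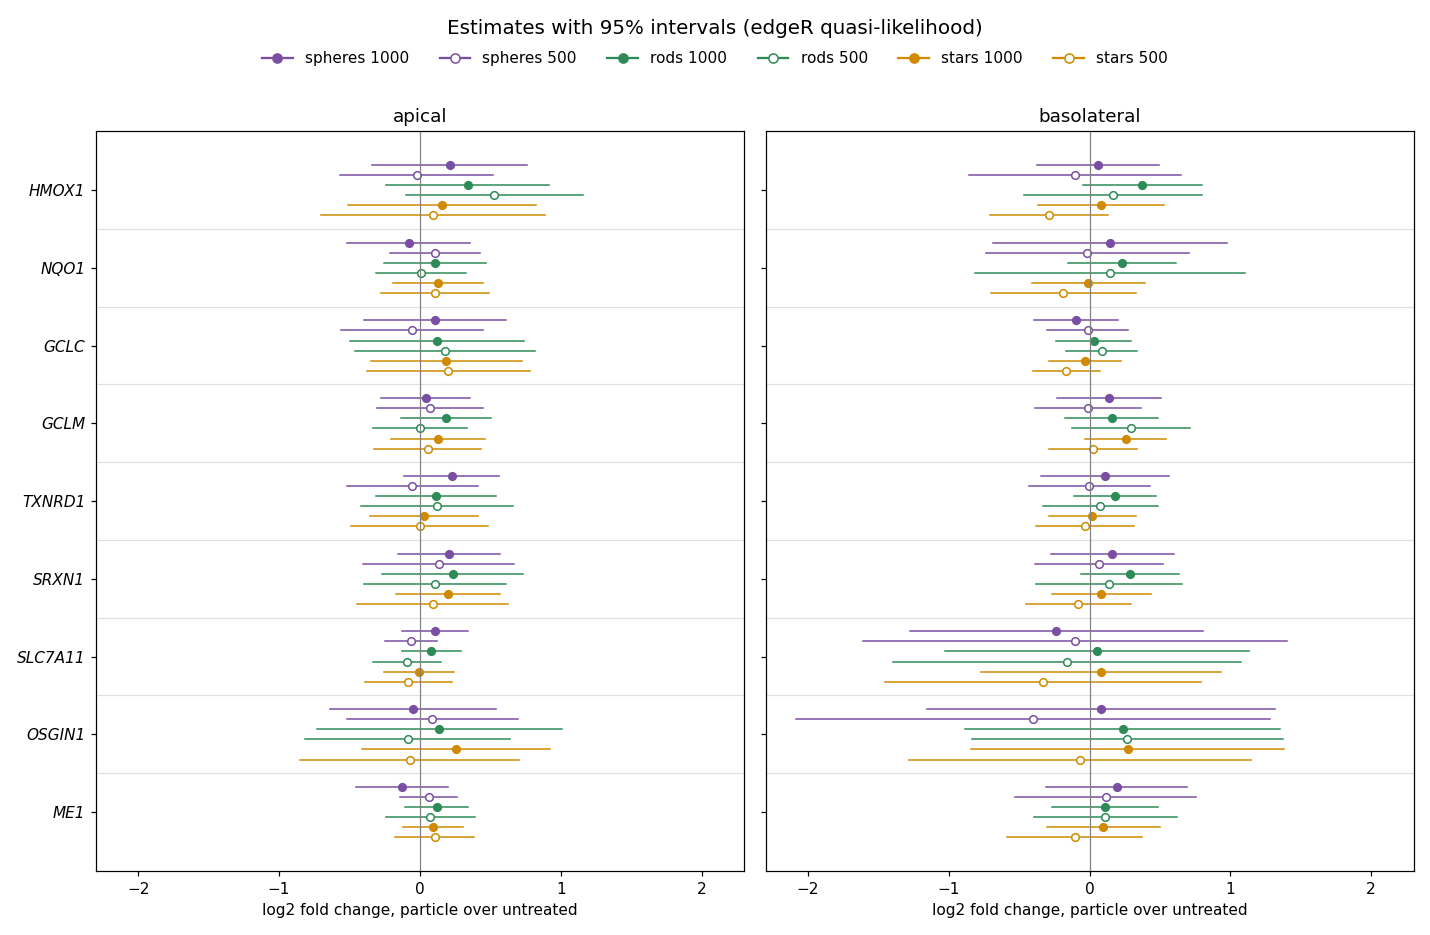
Log2 fold change of each particle group over the untreated control of its side with 95% intervals (edgeR), filled circles for 1000 and open circles for 500. Every interval includes 0; the highest apical estimate is HMOX1 in rods 500 (0.53), and the widest basolateral intervals belong to OSGIN1 and SLC7A11.

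HMOX1 had the smallest unadjusted p of the members on the apical side. It had 24.3, 34.8 and 34.9 CPM in replicates 1, 2 and 3 of apical rods 500, against 16.4, 19.3 and 30.4 CPM in apical control. The groups overlapped, and the log2 fold change was 0.53 ± 0.27 (95% interval -0.10 to 1.16, unadjusted p = 0.0882, adjusted p = 1.00 in edgeR). Without control replicate 3 it was larger, at 0.85 ± 0.24, and not called (adjusted p = 0.994). The group means of HMOX1 ran from 31.3 ± 6.12 CPM in rods 500 (SD, n = 3) to 22.03 ± 7.36 CPM in control, the lowest of the 7 apical groups, and no neighbours in that order were apart.

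The next smallest apical p was that of TXNRD1 in spheres 1000. It had 1146, 1258 and 1373 CPM in spheres 1000 and 893, 1182 and 1193 CPM in control, which overlapped (log2 0.23 ± 0.15, 95% interval -0.11 to 0.56, adjusted p = 1.00). Spheres 1000 replicate 1 was the highest TXNRD1 value among the 7 apical replicate 1 libraries, which otherwise held 797 to 919 CPM.

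On the basolateral side GCLM in stars 1000 and HMOX1 in rods 1000 had the smallest unadjusted p. GCLM had 53.5, 50.2 and 48.6 CPM in stars 1000, against 43.0, 48.7 and 35.2 CPM in control, overlapping only between 48.6 and 48.7 (log2 0.26 ± 0.13, 95% interval -0.03 to 0.55, adjusted p = 1.00). HMOX1 had 21.8, 28.6 and 24.5 CPM in rods 1000, against 15.98, 18.2 and 22.4 CPM in control (log2 0.37 ± 0.19, 95% interval -0.05 to 0.80, adjusted p = 0.998). In rods 1000 replicate 3 the summed epithelial markers were at 834 CPM, against 146 CPM in control replicate 3, and the 2 other rods 1000 libraries were at 1253 and 778 CPM, against 1222 and 680 CPM. With the logarithm of that sum as a covariate over all 7 basolateral groups the HMOX1 estimate was 0.51 ± 0.19 (adjusted p = 0.644 in edgeR). That fit also holds more groups than the first. The estimate from all groups without the covariate is not given here, so the covariate's part in the change is not shown.

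**Figure D3:**
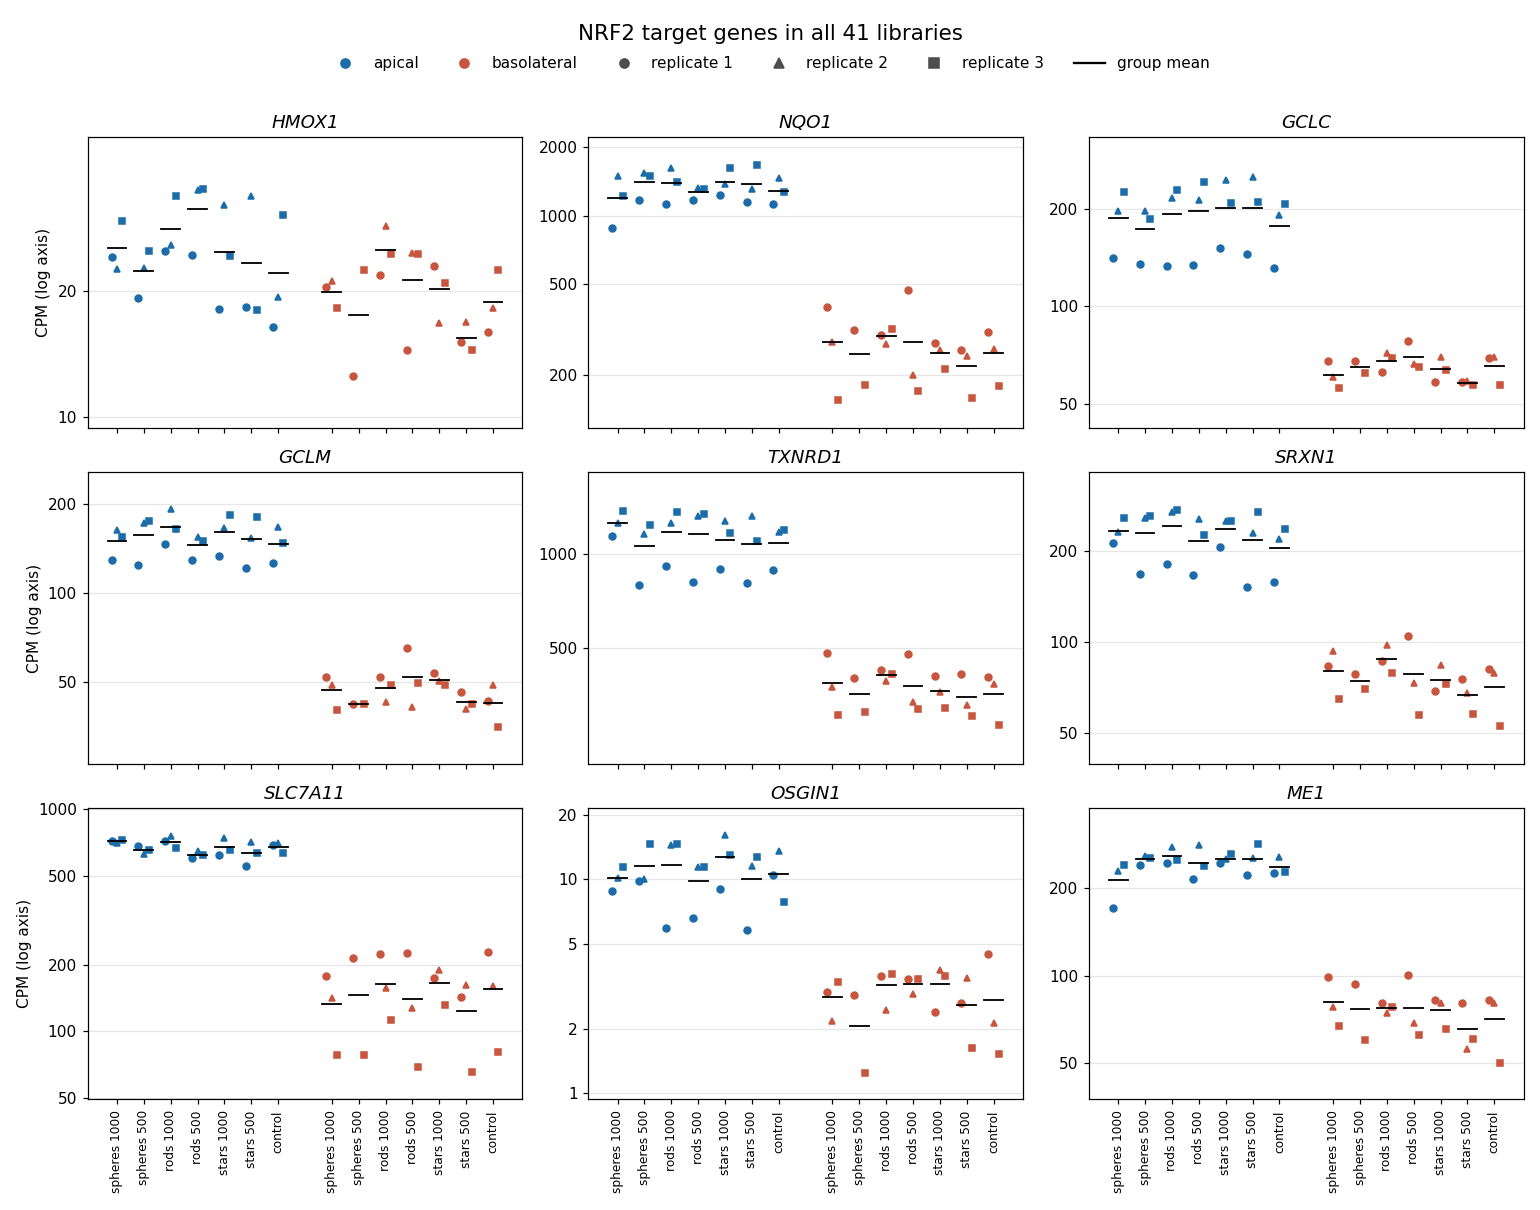
CPM of each gene on a log axis in all 41 libraries by group, particle groups left of the control of their side, with symbols for the replicate number and a bar at the group mean. Group means of 1 side lie close together for every gene, while the 2 sides are apart for all genes but HMOX1.

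Across the 7 groups of a side, none of the 108 pairs of neighbouring groups in the order of means (9 genes on 2 sides) were without overlap. Sorting groups by mean makes overlap of neighbours likely beforehand, so this count does not show that the groups are alike. The share over all genes is not given here. NQO1 means ran from 1405 ± 191 CPM in stars 1000 to 1197 ± 301 CPM in spheres 1000 apically, and from 296 ± 22.4 CPM in rods 1000 to 219 ± 52.9 CPM in stars 500 basolaterally. SLC7A11 ran from 718 ± 11.2 CPM in spheres 1000 to 624 ± 23.3 CPM in rods 500 apically, and from 164 ± 29.9 CPM in stars 1000 to 124 ± 51.1 CPM in stars 500 basolaterally. Basolateral stars 500 had the lowest mean for HMOX1, NQO1, GCLC, TXNRD1, SRXN1, SLC7A11 and ME1, and spheres 500 for GCLM and OSGIN1. Stars 500 also had the lowest mean epithelial (434 CPM), macrophage (140.5 CPM) and mast cell (62.4 CPM) marker sums of the 7 basolateral groups, and rods 1000 had the highest epithelial (955 CPM) and macrophage (215 CPM) sums. Their part in the order was not tested. Untreated control was the lowest apical group for HMOX1 and SRXN1 and in the middle of the order for OSGIN1. Neighbours in these orders overlap, but groups further apart need not. Apical SLC7A11 held 706.7 to 729.1 CPM in spheres 1000 and 601 to 647.6 CPM in rods 500. Basolateral NQO1 held 272.8 to 317.3 CPM in rods 1000 and 158.8 to 256.4 CPM in stars 500. The highest and lowest groups of apical NQO1 and of basolateral SLC7A11 did overlap. Such pairs, which differ in both shape and number, were not tested.

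Direct comparisons between particles held the number fixed (shape against shape) or the shape fixed (1000 against 500). In the 12 shape comparisons and the 6 number comparisons the share of all genes called was 0%, no member was called, and 2 of 108 shape values and 0 of 54 number values had an unadjusted p under 0.05 (edgeR). DESeq2 called up to 26 genes in a shape comparison and up to 7 in a number comparison, and none was a member. Of the 108 intervals between shapes, 92 lay within a 2-fold change, as did 46 of 54 between numbers, and the widest intervals were those of basolateral OSGIN1 (up to 2.14) and SLC7A11 (down to -1.63).

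One of those 2 was HMOX1 in rods 500 over spheres 500 on the apical side. It had 24.3, 34.8 and 34.9 CPM in rods 500, against 19.2, 22.7 and 24.8 CPM in spheres 500, with rods replicate 1 inside the range of spheres. The log2 fold change was 0.55 ± 0.20 (95% interval 0.10 to 1.01, unadjusted p = 0.0231, adjusted p = 0.878 in edgeR). Without rods 500 replicate 1 it was 0.72 ± 0.16 and called (adjusted p = 0.0286), in a fit that called 904 genes. Summed mast cell markers were at 1613, 340 and 295.5 CPM in rods 500 and at 1560, 836 and 839 CPM in spheres 500, and their part in the difference was not tested.

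The other was GCLC in stars 500 over rods 500 on the basolateral side, with 58.3, 59.0 and 57.2 CPM in stars 500, against 78.3, 66.2 and 64.9 CPM in rods 500. These did not overlap, and the log2 fold change was -0.26 ± 0.11 (95% interval -0.51 to -0.01, unadjusted p = 0.0414, adjusted p = 1.00 in edgeR). Summed epithelial markers were at 633, 556 and 113 CPM in stars 500, against 2194, 312 and 131 CPM in rods 500. Without rods 500 replicate 1, which held the 78.3 CPM, the estimate was -0.20 ± 0.12.

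Whether a particle changed the genes differently on the 2 sides was tested as the apical minus the basolateral log2 response. The share of all genes called was 0% for all 6 particle groups and no member was called or had an unadjusted p under 0.05 (edgeR; DESeq2 called 0 to 3 genes and no member). The 54 member differences ran from -0.32 to 0.53, both for OSGIN1, and 37 of their intervals lay within a 2-fold difference.

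The replicate numbers paired libraries in 4 of the 12 comparisons with control and in 5 of the 18 between particle groups. The deviations of same-numbered libraries from their group means correlated negatively for replicates 2 and 3 in apical stars 1000 over control (r = -0.137 and -0.173) and in apical stars 500 over control (-0.159 and -0.234). Mast cell markers summed to 329 and 870 CPM in replicates 2 and 3 of apical stars 1000 and to 323 and 902 CPM in those of stars 500, against 867 and 308 CPM in those of control, the other way round. The labelled numbers were used as given. With the replicate number as a block, 27 genes were called in apical spheres 1000 over control and 5 in apical rods 1000 over control, 42 in apical rods 1000 over spheres 1000 and 76 in apical rods 500 over spheres 500, with no member among them. At an unadjusted p under 0.05 in the paired comparisons with control were 3 members in apical rods 1000 (SRXN1 at 0.23 ± 0.07, GCLM at 0.19 ± 0.07 and HMOX1 at 0.37 ± 0.14), 2 in apical spheres 1000 (TXNRD1 at 0.23 ± 0.09 and SRXN1 at 0.22 ± 0.09), and 1 each in basolateral stars 1000 (GCLM at 0.26 ± 0.11) and stars 500 (SLC7A11 at -0.31 ± 0.13), with adjusted p-values of 0.681 or more in edgeR. The share of all genes at an unadjusted p under 0.05 with the block is not given here. These counts therefore do not show a concentration in the members. HMOX1 in apical rods 500 over spheres 500, with the block, was at 0.54 ± 0.15 (adjusted p = 0.204 in edgeR). In apical rods 1000 over spheres 1000 the pathway gene FTH1 was called (-0.37 ± 0.07, adjusted p = 0.0299).

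Without the block, pathway genes outside the 9 members did not pass the threshold in any comparison with control, between shapes or between numbers. An unadjusted p under 0.05 was reached by 13 of 872 values (1.49%) against control, 27 of 868 (3.11%) between shapes and 8 of 436 (1.83%) between numbers. The smallest against control was that of GLRX in basolateral rods 1000 (0.50 ± 0.14, unadjusted p = 0.00531, adjusted p = 0.998 in edgeR). In the same comparison SQSTM1 was at 0.47 ± 0.16 and TRIB3 at 0.33 ± 0.13, and in apical spheres 1000 MAFK was at 0.45 ± 0.15 and TXNIP, a thioredoxin inhibitor, at -0.25 ± 0.12. CHAC1, which degrades glutathione and is an ATF4 target, was at -1.30 ± 0.45 in apical spheres 500. Of the other lists, PRDX5 (-0.32 ± 0.14) and TRIM16L (-0.95 ± 0.37) had the smallest p in basolateral stars 500, the heme transporter SLC48A1 (-0.41 ± 0.19) in apical rods 500, IDH2 (0.23 ± 0.10) and ABCC1 (-0.22 ± 0.10) in apical spheres 500, and BLVRB, biliverdin reductase B (0.39 ± 0.15), in apical stars 500, with adjusted p-values of 0.998 or more.

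Within each side, several of the genes differed by replicate number. On the apical side, GCLC held 132 to 151 CPM in the 7 replicate 1 libraries, against 187 to 250.4 CPM in the 14 libraries of replicates 2 and 3. SRXN1 did likewise, with 152 to 212 CPM, against 218 to 272 CPM. GCLM was at 122 to 147 CPM in replicate 1 and at 148 to 192 CPM in the others. These 3 genes thus separated replicate 1 from the rest in treated and untreated cultures alike. The share of all genes that do so is not given here, so this is not shown to be particular to the members. TXNRD1, NQO1, OSGIN1 and ME1 also had lower medians in replicate 1, with ranges that overlapped. SLC7A11 did not, with medians of 686 and 664 CPM, and its highest apical library was 1.37-fold its lowest.

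Summed mast cell markers fell into separate levels on the apical side. They were at 1394 to 1679 CPM in the 7 apical replicate 1 libraries, at 822 to 902 CPM in 7 others and at 295.5 to 340 CPM in the last 7. The highest level and replicate 1 are the same libraries and cannot be told apart. GCLM, SRXN1, NQO1, OSGIN1 and ME1 had their highest median at the middle level and SLC7A11 at the highest. Medians of HMOX1, GCLC and TXNRD1 rose as the markers fell. HMOX1 held 29.4 to 34.9 CPM in the last 7 and 16.4 to 25.8 CPM in the other 14. NQO1 was highest in the middle 7, at 1457 to 1661 CPM, against 884 to 1231 CPM in replicate 1 and 1222 to 1407 CPM in the last 7. Each apical group had 1 library at each level, except that rods 500 had 2 at the lowest and none in the middle, and spheres 500 had 2 in the middle and none at the lowest. With the logarithm of the mast cell sum as a covariate over all apical groups, HMOX1 in rods 500 over control was at 0.42 ± 0.15 and in rods 1000 over control at 0.39 ± 0.15 (adjusted p = 0.999 and 1.00 in edgeR). These fits differ from those of 2 groups in the groups they hold as well as in the covariate. Estimates from all groups without the covariate are not given here, so its part is not shown. The part of these markers in the levels was not tested beyond these fits.

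Basolaterally, epithelial, macrophage and mast cell markers were high in some libraries and low in others together. In the 5 libraries with an epithelial sum of 1222 to 2194 CPM, all of replicate 1, SLC7A11 held 178.5 to 227 CPM and NQO1 299 to 471 CPM. In the 5 with a sum of 100.2 to 146 CPM, all of replicate 3, SLC7A11 held 65.8 to 80.5 CPM and NQO1 156 to 181 CPM. Marker level and replicate number cannot be told apart between these 2 sets. TXNRD1 held 401 to 484 CPM in the first and 284 to 319.5 CPM in the second, and ME1 80.5 to 100.2 and 49.9 to 66.8 CPM. HMOX1 overlapped between them, with 12.5 to 21.8 and 14.4 to 24.5 CPM. In the same 2 sets macrophage markers summed to 227 to 376 and 46.5 to 53.8 CPM and mast cell markers to 218.5 to 342.5 and 13.1 to 18.6 CPM. In the untreated basolateral libraries the epithelial sum was 1222, 680 and 146 CPM in replicates 1, 2 and 3, against 8462, 9254 and 7769 CPM apically. Its part in the members' basolateral levels was not tested.

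**Figure D4:**
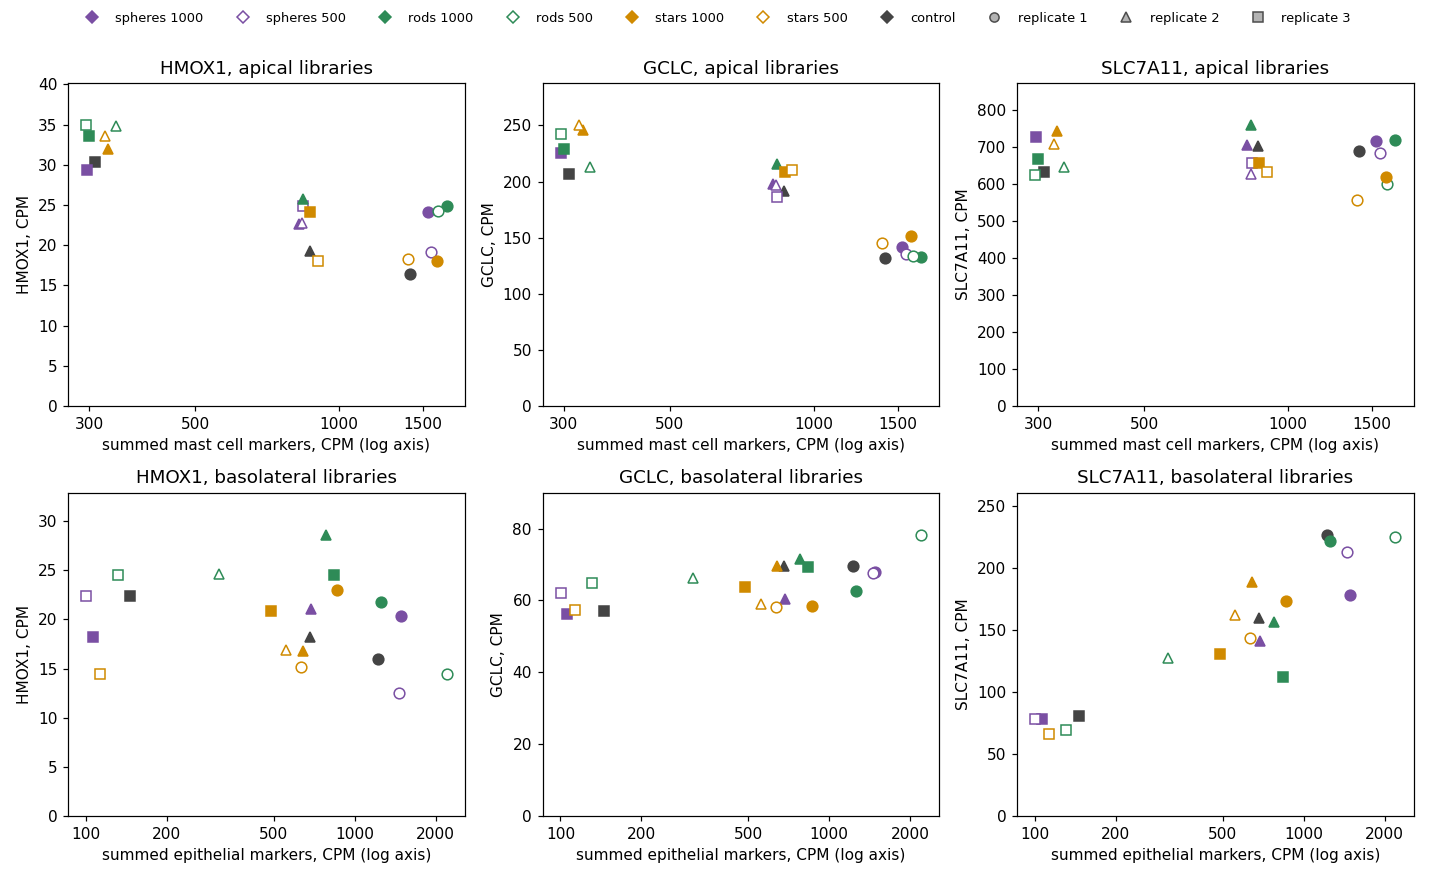
CPM of HMOX1, GCLC and SLC7A11 in each library against the summed mast cell markers (apical, upper row) or epithelial markers (basolateral, lower row) on a log axis, with colours for the particle, open symbols for 500 and shapes for the replicate number. Apical HMOX1 is highest where mast cell markers are at 295.5 to 340 CPM, apical GCLC is lowest where they are at 1394 to 1679 CPM, and basolateral SLC7A11 is lowest where epithelial markers are at 100.2 to 146 CPM.

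HMOX1 lies at chr22:35380361-35394214, NQO1 at chr16:69706996-69726951, GCLC at chr6:53497341-53616970, GCLM at chr1:93885205-93909456 and TXNRD1 at chr12:104215779-104350305. SRXN1 lies at chr20:646615-653370, SLC7A11 at chr4:138164097-138242349, OSGIN1 at chr16:83948282-83966332 and ME1 at chr6:83210389-83431071 (GRCh38, GENCODE 29). All but HMOX1 and GCLM overlap another annotated gene there, such as the antisense SLC7A11-AS1, and the strand setting of the read counting is not given in the sources used here, so reads of the 2 cannot be told apart.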

How the data were processed

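The authors deposited whole-number read counts per gene, with no normalization. Per the labels' protocols, each library came from 1 µg of RNA and a SMARTer Stranded kit for total RNA. The submitters' processing notes name GRCh38.p13, and what aligned and counted the reads is not given in the sources used here. Even numbers made up 67.7 to 78.9% of the counts from 1 to 20, so that a count may not be 1 independent fragment. CPM are counts per library total, and CPM per kb uses merged GENCODE 29 exons. A floor of 3 counts was 0.257 to 1.09 CPM.

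Each comparison was fitted on its own 2 groups over all genes in edgeR 4.0.16 (R 4.3.3), with TMM scaling, filterByExpr, the robust quasi-likelihood test and group as the only term. The code was tested on simulated data, and DESeq2 1.42.0 and limma 3.58.1 served as alternatives. The design text calls the libraries biological replicates without saying what was cultured separately, so p-values measure the spread between them.

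Replicate numbers were taken as pairs where all 3 same-numbered libraries deviated from their group means together (correlation above 0.1), for example in apical spheres 1000 and control. Values per library are given for members called with or without the replicate number as a block or, where none was, for the 2 with the smallest p on each side, and for all members in controls. Of each pathway list, called genes (up to 6) or the 2 with the smallest p qualified for naming, and the text names part of them, with others chosen after their values were seen. Not every gene that this rule names is reported here. The 9 members and the lists were chosen with earlier results of these data known.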

Additional observations from a re-analysis of the deposited data

How the results depend on the processing

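No member was called in a comparison with control, between numbers or for the difference in response between sides under any of the alternatives run for them: RLE scaling, no filter on low counts, DESeq2, the replicate block, fits of all groups of a side (comparisons with control and between shapes or numbers), or leaving out 1 library (no scaling, limma-voom and the marker covariate were run only against control). Between shapes, apical rods 500 over spheres 500 gave 0 to 1 called members when 1 library was left out; the 1 was HMOX1 without rods 500 replicate 1. The 8 members called between untreated sides were called under all 12 alternatives, the replicate block included (8 of 9 members, 7427 genes), with log2 fold changes of 1.14 (GCLC) to 2.36 (NQO1), although those replicate numbers did not pair. HMOX1 ran from -0.25 to 0.30 there.

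Counts of genes called moved by more than 1.5 times. Against control they were up to 27 with the replicate block, 7 without the filter and 4 with DESeq2. Between shapes they reached 76, 35 and 26, and between numbers 4, 5 and 7. Leaving out basolateral rods 500 replicate 1 gave 109 in rods 1000 over rods 500, and leaving out apical rods 500 replicate 1 gave 904 against spheres 500. Of 1611 alternative estimates of a member against control, 175 changed sign and 11 of them by more than 1 standard error; none was called. Basolateral OSGIN1 had 6 to 41 counts a library, and the part of depth in its wide intervals was not tested.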

Other observations

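Genes whose levels ran most like the mean of the 9 members were looked up on each side, among genes with a mean log2 CPM of at least 4, as a description with no test. Over 21 apical libraries these were AKR1C3 (Pearson r = 0.925 among 8314 genes), TMOD3 (0.920), TNPO1 (0.916), POC1B (0.913) and SMIM13 (0.906). Over 20 basolateral libraries they were ABCC2 (0.944 among 7908 genes), MGST1 (0.943), AKR1C2 (0.933), AKR1C1 (0.933) and AKR1C3 (0.932).

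The members did not all vary together. The correlation of 1 member with the mean of the other 8 was 0.89 for SRXN1, 0.87 for GCLC and for GCLM and 0.84 for TXNRD1 on the apical side, and 0.46 for HMOX1 and 0.32 for SLC7A11. On the basolateral side it was 0.89 for NQO1 and TXNRD1, 0.77 for SLC7A11 and -0.19 for HMOX1. SLC7A11 was thus the gene least tied to the others apically and closely tied to them basolaterally, where its highest library was 3.45-fold its lowest.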
